A study of Mus musculus with 24 samples.

Results

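Tumours grown from 2 mouse cancer cell lines, MC38 and B16, were compared in the groups labelled as knock-outs of the kinase gene Chek2, with no active treatment. The comparison rests on 6 of the 24 RNA-seq libraries of the series, chosen by their labels: 3 of MC38 tumours and 3 of B16 tumours, both labelled CHEK2-knock out and both given PBS, the vehicle. The 6 matching libraries from parental CHEK2-WT tumours under PBS, 3 of each line, served to ask which differences between the lines were also present when Chek2 was intact. The other 12 libraries, from tumours given anti-PD-1, entered only 1 alternative fit. Each library was made from RNA of whole tumour tissue, so it holds RNA of cancer cells and of host cells, and the host cells keep their own Chek2. Whether each knock-out line was 1 clone, whether animals were pooled, and the age and strain of the mice are not given in the sources used here. The labels also do not say that replicates came from separate mice, so the p-values measure the spread between these samples, which may be technical. Line and any difference in handling between the tumours of each line cannot be told apart.

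MC38 is a mouse line of colon carcinoma origin that is widely used as a tumour with many infiltrating T cells. B16 is a mouse melanoma line that makes pigment and is known for low MHC class I on its cells and few infiltrating lymphocytes. CHEK2 is a checkpoint kinase that is activated by ATM after DNA double-strand breaks and acts on p53 and on cell cycle regulators. MHC class I molecules show peptides from inside the cell to CD8 T cells, and interferon-gamma, made by activated T and NK cells, raises MHC class I, guanylate-binding proteins and the chemokines that draw more T cells in.

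Values are FPKM, fragment counts scaled to gene length and library size, and differences are on the log2(FPKM + 1) scale, MC38 minus B16, with the standard error from limma. Because of the added 1, such a difference understates the change of genes with low FPKM. A gene was called when its limma p-value, adjusted by the Benjamini-Hochberg method over all genes tested, was under 0.05. The depth estimated from the smallest steps in the FPKM values lay between 13490000 and 22390000 reads in the 6 knock-out libraries, and mitochondrial genes took 14.3% to 17.5% of the FPKM sum. Across genes, libraries of 1 group correlated at 0.977 to 0.985 and libraries of different lines at 0.732 to 0.755 (Pearson's r of log2 values; genes are not independent replicates).

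Chek2 itself was measured at 2.2, 2.4 and 1.92 FPKM in the 3 MC38 knock-out tumours and at 5.68, 5.64 and 5.67 FPKM in the 3 B16 knock-out tumours. The parental tumours gave 6.14, 5.15 and 4.61 FPKM for MC38 and 7.7, 7.93 and 7.17 FPKM for B16. In each line every knock-out library lay below every parental library, but Chek2 RNA was still read in all 6, and which part of the gene was edited is not given in the sources used here. Knock-out minus parental, Chek2 changed by -0.99 ± 0.098 in MC38 (adjusted p = 9.38e-05), while the change of -0.37 ± 0.098 in B16 did not pass the test (adjusted p = 0.0865, limma). Within knock-out tumours Chek2 was 2.61-fold lower in MC38 than in B16 (-1.07 ± 0.094, adjusted p = 5.77e-05), and the line difference was larger in size than in parental tumours (-0.62 ± 0.14, adjusted p = 0.0198).

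The 2 kinds of knock-out tumour differed at most expressed genes. The test covered 13731 genes that reached 1 FPKM in 3 or more of the 6 libraries, and 8705 of them (63.4%) were called, 4661 (33.9%) higher in MC38 and 4044 (29.5%) higher in B16. A difference of at least 2-fold was called for 1923 genes in MC38 and 1475 in B16. The groups did not overlap at 69.5% of the tested genes. With no filter on level, 10470 of 31091 genes (33.7%) were called, 18.9% higher in MC38 and 14.7% lower. Most markers of rare cell types lie under 1 FPKM in both lines, so every count over a gene list given here comes from the fits without the filter, to be read against these shares. Members listed at 0 in every library of a fit could not be tested, and the number tested is given where it is below the list's size. For lists of well expressed genes the shares among filtered genes, 33.9% and 29.5%, are the closer background. Values of single genes come from the filtered fits where the gene passed, and are otherwise said to be without the filter. Where a list is said to have no member lower in MC38, none was lower at an unadjusted p under 0.05 either (limma), except for 1 myeloid chemokine gene and 4 erythroid genes.

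Most line differences of parental tumours were called in knock-out tumours too. In a fit of the 12 PBS libraries with 14735 genes, 9401 genes (63.8%) differed between the parental lines, 4622 (31.4%) higher and 4779 (32.4%) lower in MC38. Of the 4622, 3958 (85.6%, and 76.3% of the 5186 called higher in knock-out tumours in the same fit) were called higher again. Of the 4779, 3660 (76.6%, and 84.7% of 4321) were called lower again. Calls in opposite directions were made for 26 and 64 genes. The change of the line difference itself, knock-out minus parental (the line-by-genotype difference), was called for 1353 genes (9.18%), 820 (5.56%) of them upward and 533 (3.62%) downward. Without the filter these shares were 3.63%, 2.04% and 1.58%, and the parental line difference was called for 17.6% of genes upward and 15.5% downward. In the gene lists below, knock-out counts come from the 6-library fit and parental counts from the 12-library fit. The latter has more residual degrees of freedom, so the 2 counts are not matched in power, while medians and summed FPKM do not depend on the fit. With the filter, the knock-out comparison gave 8705 calls in the fit of 6 libraries and 9507 in the fit of 12. On the MC38 side 2845 genes (19.3%) differed between knock-out and parental tumours, against 255 (1.73%) on the B16 side.

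**Figure D1:**
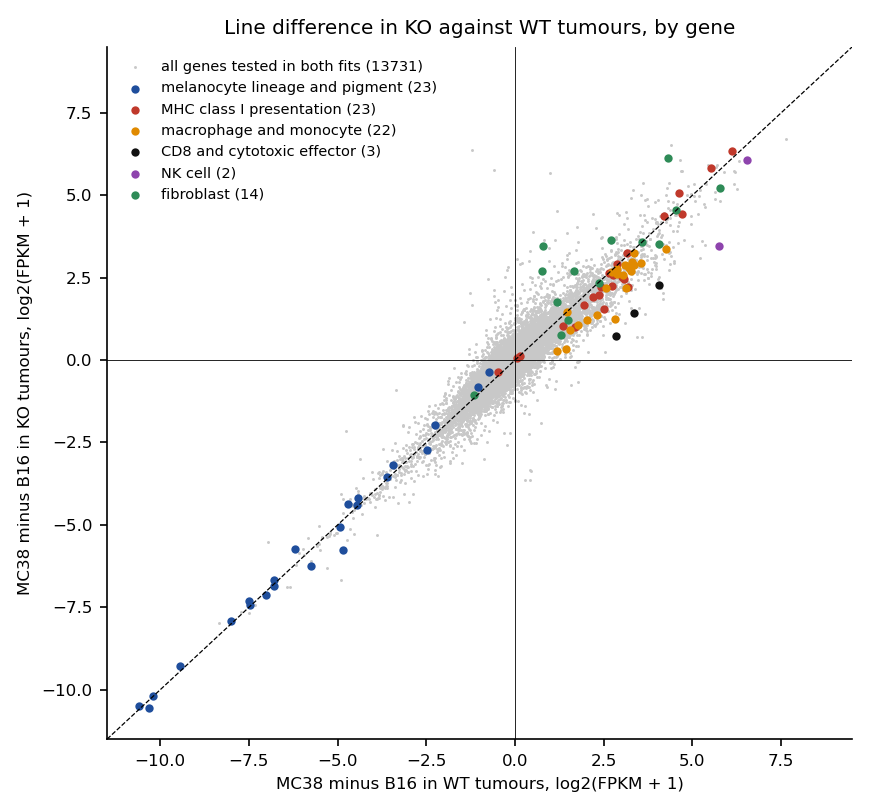
Line differences (MC38 minus B16, log2(FPKM + 1) scale) of the 13731 tested genes in parental tumours, horizontal axis, and knock-out tumours, vertical axis, with 6 gene lists in colour and a dashed line at equality. Melanocyte genes lie far below 0 on both axes, MHC class I, macrophage and fibroblast genes lie mostly above 0 on both, and the few CD8 and NK genes that passed the filter lie under the dashed line.

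Pigment genes on the B16 side and class I and interferon genes on the MC38 side moved as groups, so their promoters are shown first. The 250 bases before the RefSeq gene start were searched on both strands for 3 motifs that were picked after the expression values were known. The first is CATGTG, a form of the E-box that MITF, the master regulator of melanocytes, binds. It was present in 8 of the 18 melanocyte genes with a promoter entry (44.4%, of 25 list symbols), among them Dct, Mc1r, Tyr and Tyrp1, against 12.3% of all 32851 promoters. Among the other lists searched the highest share was in fibroblast genes, with 2 of 8 (25%). The second is GAAA repeated after a gap of 2 bases of any kind, a core shared by sites for interferon regulatory factors and STAT complexes of type I interferon. It was present in 10 of 18 interferon-gamma response genes (55.6%), in 8 of 19 type I interferon genes (42.1%) and in 3 of 20 MHC class I presentation genes, against 2.98% of all promoters. The third is GGGGA directly followed by TTCCC, an NF-kappaB-type site that is part of the classical MHC class I enhancer. It was present in H2-D1, H2-K1, H2-Q6 and H2-Q7, 4 of 20 MHC class I presentation genes (20%), against 0.085% of all promoters. None of the 3 motifs contains another. Printed here are the promoters of 6 genes that separate the lines in knock-out tumours, from GRCm38.p6, 5′ to 3′ on the gene's strand, with the matched motif in capitals: 2 pigment genes, 2 class I heavy chains, the class I light chain B2m and the guanylate-binding protein Gbp2. They span chr7:87493513-87493762 (minus strand) for Tyr, chr4:80833963-80834212 (plus) for Tyrp1, chr17:34000348-34000597 (minus) for H2-K1, chr17:35438905-35439154 (plus) for H2-Q7, chr2:122147437-122147686 (plus) for B2m and chr3:142620413-142620662 (plus) for Gbp2. A match is a description of letters, not a measured binding site.
Tyr: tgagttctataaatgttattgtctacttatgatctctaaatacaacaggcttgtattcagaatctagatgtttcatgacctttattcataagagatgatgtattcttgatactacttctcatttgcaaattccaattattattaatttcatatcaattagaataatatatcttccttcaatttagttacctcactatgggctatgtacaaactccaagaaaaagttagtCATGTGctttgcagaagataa
Tyrp1: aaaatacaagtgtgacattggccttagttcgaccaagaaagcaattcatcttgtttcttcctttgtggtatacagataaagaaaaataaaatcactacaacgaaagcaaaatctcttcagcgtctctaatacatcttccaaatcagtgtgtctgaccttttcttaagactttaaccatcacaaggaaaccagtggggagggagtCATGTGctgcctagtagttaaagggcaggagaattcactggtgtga
H2-K1: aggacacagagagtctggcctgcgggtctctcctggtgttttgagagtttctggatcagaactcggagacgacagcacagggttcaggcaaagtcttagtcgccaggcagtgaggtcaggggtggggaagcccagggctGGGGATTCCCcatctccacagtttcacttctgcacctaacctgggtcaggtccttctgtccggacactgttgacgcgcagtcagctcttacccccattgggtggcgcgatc
H2-Q7: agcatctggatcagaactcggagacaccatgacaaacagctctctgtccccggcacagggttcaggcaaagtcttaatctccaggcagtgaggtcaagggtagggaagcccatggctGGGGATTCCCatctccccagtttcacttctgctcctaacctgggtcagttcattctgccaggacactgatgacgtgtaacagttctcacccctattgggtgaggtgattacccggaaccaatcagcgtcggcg
B2m: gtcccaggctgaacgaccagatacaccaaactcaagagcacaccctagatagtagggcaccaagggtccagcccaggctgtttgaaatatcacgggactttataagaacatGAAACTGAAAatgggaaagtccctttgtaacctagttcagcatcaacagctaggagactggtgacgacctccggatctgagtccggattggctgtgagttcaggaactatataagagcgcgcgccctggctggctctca
Gbp2: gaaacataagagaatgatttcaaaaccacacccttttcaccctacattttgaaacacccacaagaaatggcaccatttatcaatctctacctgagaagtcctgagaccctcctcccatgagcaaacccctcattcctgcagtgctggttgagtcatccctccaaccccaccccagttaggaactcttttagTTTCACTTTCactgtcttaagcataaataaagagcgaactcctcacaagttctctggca

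T cell RNA stayed higher in MC38 than in B16 knock-out tumours, but the gap was much smaller than in parental tumours. Of 19 genes of T cell identity and the T cell receptor complex, 9 were called higher in MC38 and none lower (18.9% and 14.7% of all genes), with a median difference of 0.30 over all 19, against 0.02 over all genes. In parental tumours all 19 were called higher, with a median of 1.14. The line difference itself shrank in 10 of the 19 (1.58% of all genes) and grew in none; at an unadjusted p under 0.05 it shrank in 18. The summed FPKM of the list was 15.9, 13.1 and 19.14 in MC38 knock-out tumours and 1.45, 3.71 and 3.07 in B16 knock-out tumours, which do not overlap. A large part of the MC38 knock-out sums came from the gene Tcf7, described below. The parental sums were 68.2, 63.1 and 50.4 in MC38 and 3.4, 7.24 and 3.41 in B16. In bulk tissue, fewer cells of a type and less RNA per cell cannot be told apart.

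Single T cell genes show how low these levels were. Trac, which encodes the constant region shared by alpha-beta T cell receptors, stood at 1.32, 0.577 and 1.04 FPKM in MC38 knock-out and 0.249, 0 and 0 in B16 knock-out tumours (0.86, adjusted p = 0.0121 without the filter). Parental MC38 tumours had 9.07 ± 1.91 (SD, n = 3) and parental B16 tumours 0.565 ± 0.125, so the line difference was smaller in knock-out tumours (-1.81 ± 0.25, adjusted p = 0.00206). The CD3 chain gene Cd3d gave 0.275, 0.392 and 0.205 against 0, 0.0686 and 0 FPKM (0.33, adjusted p = 0.00939 without the filter), with a line-by-genotype difference of -1.35 ± 0.19 (adjusted p = 0.00258). Cd3e, another CD3 chain, gave 0.485, 0.0336 and 0.274 against 0.0141, 0 and 0.036 FPKM and was not called (0.3, adjusted p = 0.142 without the filter). All of these values lie near or under 1 FPKM in knock-out tumours of both lines. Tcf7, the gene of the T cell factor TCF1, stood apart from the other T cell genes at 5.05, 6.67 and 7.89 against 0.406, 0.868 and 0.91 FPKM (2.12 ± 0.18, adjusted p = 5.34e-05), and its line difference did not change detectably (0.08 ± 0.22, adjusted p = 0.854). These changes depend on the added constant: with 0.1 in place of 1, the line difference shrank past the threshold in 1 list member, against 7 in the filtered fit with 1. Leaving out any 1 of the 3 parental MC38 libraries took that filtered count to 3.

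The CD8 and cytotoxic genes gave the same picture at a larger scale. Of 14 genes, 10 were called higher in MC38 knock-out tumours and none lower, with a median of 0.71 over all 14. All 14 were higher in parental MC38 tumours, with a median of 2.23, and the line difference shrank in 11 of 14. The summed FPKM was 29.9, 23.7 and 15.7 in MC38 and 5.97, 7.77 and 4.44 in B16 knock-out tumours, against a mean of 122 in parental MC38 and 7.80 in parental B16. In B16, 13 of the 14 members lay under 1 FPKM in every knock-out library, so the B16 sum can rest largely on 1 member. Cd8a, the CD8 coreceptor alpha chain, gave 1.21, 0.585 and 0.775 against 0.0621, 0.21 and 0.276 FPKM in knock-out tumours (0.64, adjusted p = 0.0202 without the filter) and 5.83 ± 1.62 against 0.214 ± 0.172 in parental tumours. Its line difference was smaller (-1.83 ± 0.27, adjusted p = 0.00279) and passed the threshold in all 20 alternatives run. The cytotoxic granule protease Gzmb gave 6.71, 4.31 and 2.31 against 0, 0.157 and 0 FPKM, a clear difference between the lines in knock-out tumours (2.29 ± 0.28, adjusted p = 0.000344). Its line difference was smaller than in parental tumours, where Gzmb reached 22.3 ± 7.35 in MC38 (-1.77 ± 0.43, adjusted p = 0.0264), but that call was lost in 9 of 20 alternatives, with an adjusted p of 0.574 when 0.1 was added in place of 1. The pore-forming Prf1 was 1.86, 1.25 and 0.667 against 0, 0 and 0.0285 FPKM (1.13, adjusted p = 0.00719 without the filter). The granule gene Nkg7 was 2.35, 2.48 and 1.3 against 0, 0.343 and 0 (1.44 ± 0.20, adjusted p = 0.000573), with its line difference smaller (-1.91 ± 0.32, adjusted p = 0.0053). Ifng, which encodes interferon-gamma, was read at 0.977, 0.335 and 0.103 FPKM in MC38 and listed at 0 in all 3 B16 knock-out libraries. The difference was not called (0.51, adjusted p = 0.121 without the filter), whereas the line difference was smaller than in parental tumours (-1.65 ± 0.26, adjusted p = 0.00378), parental MC38 tumours having 3.52 ± 0.589 FPKM. With 0.1 added, the line difference of 3 list members shrank past the threshold, against 11 in the filtered fit with 1, and without parental MC38 replicate 1, 2 or 3 the filtered count was 6, 7 or 6.

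**Figure D2:**
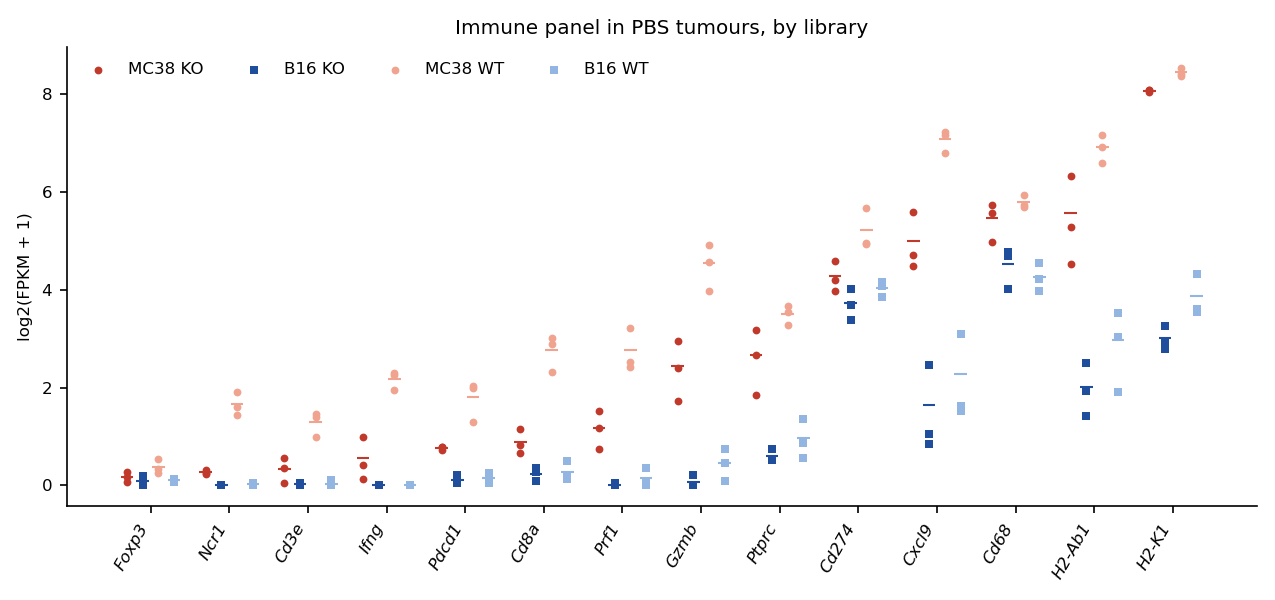
log2(FPKM + 1) of the 14 genes of the immune panel in the 12 PBS tumours, points for libraries and short bars for log2 of the group mean FPKM + 1 (red circles MC38 knock-out, blue squares B16 knock-out, pale red and pale blue the parental tumours). Cd8a, Ifng and Gzmb in MC38 knock-out tumours lie between the parental MC38 and the B16 points.

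Ccl5, a T and NK cell chemokine that other cells make as well, was 10.9, 9.65 and 6.58 FPKM in MC38 and 5.62, 5.81 and 3.58 FPKM in B16 knock-out tumours (0.74 ± 0.22, adjusted p = 0.0196). That call was lost in 7 of 21 alternatives, with adjusted p up to 0.0655, among them those without MC38 knock-out replicate 1 or 2 and the fit of all 24 libraries, and the difference was 0.55 at the lowest. Parental MC38 tumours had 47.2 ± 2.08 and parental B16 5.77 ± 1.12, and the line difference was smaller in knock-out tumours (-2.11 ± 0.27, adjusted p = 0.00141). Among 9 checkpoint receptor genes, 6 were called higher in MC38 knock-out tumours (median 0.78), all 9 in parental tumours (median 1.43), and the line difference shrank in 2. Pdcd1, which encodes PD-1, was 0.713, 0.651 and 0.713 against 0.03, 0.153 and 0.0376 FPKM (0.66, adjusted p = 0.00091 without the filter), and the call of its smaller line difference (-0.98 ± 0.24, adjusted p = 0.0308) was lost in 10 of 16 alternatives. The receptor Lag3 was 1.94, 1.74 and 1.5 against 0.46, 0.581 and 0.391 (0.88 ± 0.11, adjusted p = 0.000314), with its line difference smaller (-0.97 ± 0.16, adjusted p = 0.00433). Of 9 genes of regulatory T cells and costimulation, 5 were called higher (median 0.18), and no change of the line difference was called by limma without the filter (4 shrank at an unadjusted p under 0.05). Foxp3, the defining factor of regulatory T cells, was not called (0.07, adjusted p = 0.469 without the filter).

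NK genes were also higher in MC38 knock-out tumours, with a smaller gap than in parental ones on the log2(FPKM + 1) scale. Of 12 NK genes, 7 were called higher (median 0.47) and none lower, against 12 of 12 in parental tumours (median 1.57), and the line difference shrank in 6. In the filtered fit it shrank in 9, in 3 with 0.1 added, and in 4, 3 or 3 without parental MC38 replicate 1, 2 or 3. Ncr1, which encodes the NK receptor NKp46, was 0.171, 0.251 and 0.185 FPKM in MC38 and listed at 0 in all 3 B16 knock-out libraries (0.27, adjusted p = 0.00176 without the filter). Its line difference was smaller (-1.37 ± 0.17, adjusted p = 0.00137), parental MC38 tumours having 2.17 ± 0.536. Ncr1 passed the filter only through the parental MC38 libraries, and without the filter the adjusted p of this change was 0.00221 (limma). The granzyme Gzmc was 17.6, 13.4 and 6.14 against 0, 0 and 0.412 (3.47 ± 0.35, adjusted p = 0.00011), with a line difference smaller (-2.29 ± 0.53, adjusted p = 0.0217, lost in 4 of 20 alternatives). Klra4, a Ly49-family receptor gene, departed from the list at 72.3, 68.3 and 63.2 against 0, 0.0487 and 0.0248 FPKM (6.07 ± 0.084, adjusted p = 1.86e-08), with no called change of its line difference (-0.48 ± 0.14, adjusted p = 0.0606). Klra genes are near-identical copies, so the share read from each is uncertain, and Klra4 alone made up most of the list's summed FPKM in MC38 knock-out tumours. That sum was 97.4, 84.6 and 73 in MC38 and 0.206, 1.39 and 0.759 in B16 knock-out tumours. In parental tumours it was 176, 201 and 216 in MC38 and 0.416, 3.75 and 1.02 in B16, so the sums were lower in knock-out than in parental MC38 tumours and overlapped in B16. Of 13 B and plasma cell genes, 2 were called higher and 1, the receptor chain Cd79a, lower, with a median of 0.01, while 4 were higher in parental tumours. Their summed FPKM was 16, 7.31 and 23.7 in MC38 and 3.09, 7.12 and 2.58 in B16 knock-out tumours, without overlap, and 56.5, 71.6 and 43.4 in parental MC38 tumours. Ighm, the immunoglobulin mu chain, was 1 of those higher (8.29, 4.04 and 3.11 against 0.365, 1.71 and 0.517 FPKM, 1.7 ± 0.36, adjusted p = 0.00503).

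Macrophage and monocyte genes had the widest median gap of the immune cell lists, and the gap was present in parental tumours too. Of 22 genes, 19 were called higher in MC38 knock-out tumours and none lower, with a median of 2.60, against 21 in parental tumours with a median of 2.88. The estimated line-by-genotype difference was negative in all 22, though it was called for only 2, Ly6c2 and Mertk. The summed FPKM of the list was 1716, 1139 and 678 in MC38 and 273, 369 and 208 in B16 knock-out tumours, against 2621, 2297 and 2221 in parental MC38 tumours, with no overlap between the MC38 groups. The MC38 sums spread widely, with replicate 1 highest, but the lowest MC38 value was still above the highest B16 value. Replicate 1 of MC38 was also highest in the summed skeletal muscle list (158, 28.6 and 3.54 FPKM) and the adipocyte list (63.9, 4.88 and 6.59 FPKM), and the part of surrounding tissue in the macrophage values was not tested.

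Adgre1, the gene of the macrophage antigen F4/80, was 38.2, 21.4 and 11 FPKM in MC38 and 3.59, 6.52 and 2.32 in B16 knock-out tumours (2.18 ± 0.46, adjusted p = 0.00466). The growth factor receptor Csf1r was 22.5, 15.3 and 11 against 1.78, 2.94 and 0.827 (2.62 ± 0.33, adjusted p = 0.000363). C1qa, a complement subunit made by macrophages, was 253, 175 and 89 against 14.6, 26 and 10.02 (3.25 ± 0.44, adjusted p = 0.000521). In each of these the groups did not overlap, and none had a called change of its line difference. Cd68, a lysosomal macrophage marker, was 52, 46.9 and 30.4 against 24.8, 26.5 and 15.2 FPKM (0.93 ± 0.26, adjusted p = 0.0162), a call lost in 4 of 21 alternatives, those without MC38 knock-out replicate 1 (0.78) or replicate 2 (0.85), with adjusted p up to 0.0564. The 2 arginine-metabolising enzymes known from macrophages were both higher in MC38: Arg1 at 11.7, 18.4 and 19.9 against 2.15, 2.33 and 0.81 FPKM (2.7 ± 0.28, adjusted p = 0.000138) and Nos2 at 8.13, 7.5 and 6.8 against 0.11, 0.287 and 0.308 (2.78 ± 0.11, adjusted p = 1.44e-06). Arg1 rose from replicate 1 to replicate 3 of MC38, the reverse of the macrophage sums, and which cells made either transcript was not tested. The monocyte antigen gene Ly6c2 was 3.23, 2.08 and 1.57 against 0.312, 0.399 and 0.384 (1.24 ± 0.18, adjusted p = 0.000781), with its line difference smaller (-1.57 ± 0.27, adjusted p = 0.0057, lost in 1 of 20 alternatives). The mannose receptor gene Mrc1 did not separate the lines (17.4, 7.5 and 5.2 against 7.03, 9.34 and 5.61 FPKM, 0.27 ± 0.39, adjusted p = 0.559), nor did Apoe (0.32 ± 0.38, adjusted p = 0.48).

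Other myeloid lists gave fewer calls. Of 12 neutrophil genes, 11 of them tested, 4 were called higher in MC38 knock-out tumours and none lower (median 0.09). The neutrophil surface gene Ly6g was listed at 0 in all 6 libraries, and the granule gene S100a8 gave 0.218, 0.852 and 0.532 against 0, 0.737 and 0.54 FPKM, which overlap. The granulocyte receptor Csf3r was 2.81, 1.88 and 1.24 against 0.278, 0.135 and 0.146 (1.3 ± 0.19, adjusted p = 0.000839). Of 12 conventional dendritic cell genes 4 were called higher and none lower (median 0.27), including Itgax, the CD11c chain (14.7, 15 and 7.95 against 0.199, 0.388 and 0.3 FPKM, 3.34 ± 0.23, adjusted p = 1.64e-05) and Clec9a, a receptor of cross-presenting dendritic cells (1.63 ± 0.13, adjusted p = 3.79e-05). Ptprc, the pan-leukocyte CD45 gene, was 8.05, 5.39 and 2.61 against 0.44, 0.681 and 0.429 FPKM (1.97 ± 0.31, adjusted p = 0.0011), with no called change of the line difference (-0.6 ± 0.41, adjusted p = 0.394).

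**Figure D3:**
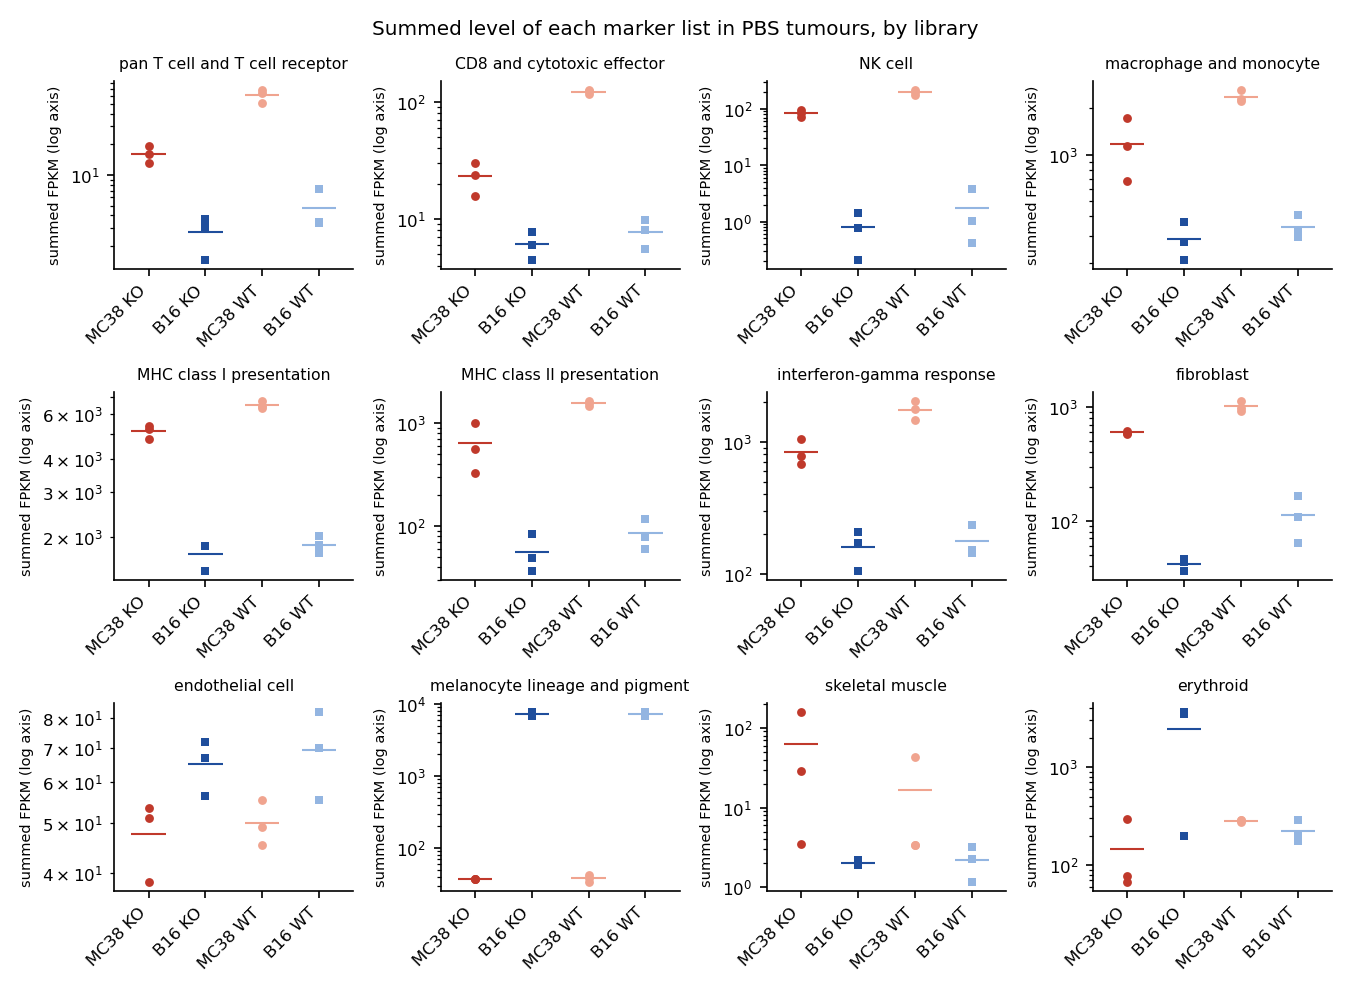
Summed FPKM of marker lists in each of the 12 PBS tumours on a log axis, points for libraries and short bars for group means (colours as in the plot of the immune panel). The macrophage, MHC and interferon-gamma sums of the MC38 knock-out tumours lie above all B16 points and below all parental MC38 points, and so do their T cell and CD8 sums.

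MHC class I presentation was higher in MC38 knock-out tumours at 20 of 23 genes and lower at 1, with a median of 2.23, and the parental tumours gave the same counts with a median of 2.72. The count of 20 higher was the same in every alternative run for the knock-out comparison. H2-K1, a classical class I heavy chain, was 272, 269.8 and 264 FPKM in MC38 and 6.59, 8.58 and 5.95 in B16 knock-out tumours (5.08 ± 0.12, adjusted p = 1.72e-07), 38.1-fold by group means. H2-D1, another classical heavy chain, was 617, 584 and 564 against 55.3, 84.1 and 50.2 (9.31-fold, 3.23 ± 0.18, adjusted p = 6.59e-06). The light chain gene B2m was 2861, 2778 and 2332 against 663, 966 and 886 FPKM (3.17-fold, 1.68 ± 0.16, adjusted p = 0.000102). No B16 library reached the MC38 range at any of the 3 genes. The nonclassical genes H2-Q6 (188, 189.7 and 181 against 0.919, 1.95 and 1.1 FPKM, 6.36 ± 0.16, adjusted p = 2.12e-07) and H2-Q7 (106, 109 and 116 against 0.937, 1.02 and 0.939, 5.82 ± 0.072, adjusted p = 1.15e-08) gave wider gaps. H2-Q6 and H2-Q7 are near-identical copies, so their separate values are uncertain.

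Genes that load class I were higher as well. Psmb8, an immunoproteasome subunit, was 54.4, 49.4 and 44.9 against 0.664, 2.3 and 1.68 FPKM (4.36 ± 0.24, adjusted p = 5.52e-06). Tap1, a subunit of the peptide pump into the endoplasmic reticulum, differed by 2.23 ± 0.19 (adjusted p = 5.57e-05). Nlrc5, the transactivator of class I genes, was 15.6, 14.2 and 12.5 against 1.66, 4.79 and 2.72 FPKM (1.97 ± 0.26, adjusted p = 0.000509). The general chaperones of the endoplasmic reticulum were close between the lines: Calr (0.13 ± 0.10, adjusted p = 0.284) and Pdia3 (0.07 ± 0.10, adjusted p = 0.558) were not called, and Canx was the 1 lower gene (-0.37 ± 0.093, adjusted p = 0.0107), a call that quantile normalization ended (adjusted p = 0.0691). The line difference shrank for Tapbp, the loading chaperone tapasin (-0.96 ± 0.19, adjusted p = 0.013), for H2-M3 (-0.94 ± 0.20, adjusted p = 0.0162) and for Psmb10 (-0.6 ± 0.15, adjusted p = 0.0282), and all 3 calls were lost in the fit of all 24 libraries. Psmb10 lost its call in 12 of 20 alternatives, Tapbp and H2-M3 in that fit alone. For H2-K1 it did not change detectably (0.45 ± 0.25, adjusted p = 0.286).

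MHC class II presentation, known mostly from dendritic cells, macrophages and B cells, was higher at 9 of 11 genes and lower at none (median 1.94), against 11 of 11 in parental tumours (median 2.21). H2-Ab1, a class II beta chain, was 79.5, 38.1 and 22 against 1.67, 4.64 and 2.82 FPKM (3.43 ± 0.46, adjusted p = 0.000529). The invariant chain gene Cd74 was 214, 100.2 and 71.8 against 5.77, 15.8 and 12.4 (3.34 ± 0.46, adjusted p = 0.000596). In both genes replicate 1 of MC38 was the highest and replicate 3 the lowest, the order of the macrophage sums, and no library of B16 reached the lowest MC38 value. Ciita, the class II transactivator, was 1.45, 0.347 and 0.803 against 0.0244, 0.167 and 0.0636 FPKM (0.74, adjusted p = 0.0473 without the filter), with its line difference smaller (-0.93 ± 0.26, adjusted p = 0.0477, lost in 14 of 19 alternatives).

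Genes of the interferon-gamma response were called higher in MC38 knock-out tumours at 24 of 26 and lower at 1 (median 2.14), against 25 higher in parental tumours (median 2.84), although Ifng itself was near 0. The summed FPKM was 1037, 780.4 and 679 in MC38 and 106, 207 and 172 in B16 knock-out tumours, with no overlap. Gbp2, a guanylate-binding protein of host defence, was 254, 196 and 174 against 4.11, 14.7 and 5.86 FPKM (4.65 ± 0.39, adjusted p = 4.70e-05), and 477 ± 97.2 against 11.4 ± 5.82 in parental tumours. Irf1, the factor that turns on much of this programme, was 50.3, 41.4 and 21.9 against 3.54, 5.81 and 4.69 (2.71 ± 0.30, adjusted p = 0.000192). The ligand-binding receptor chain Ifngr1 was higher in MC38 (1.49 ± 0.19, adjusted p = 0.000417) and the other chain Ifngr2 lower (-0.3 ± 0.093, adjusted p = 0.0257, lost in 8 of 21 alternatives). The line difference shrank in 3 of 26 without the filter, in 5 with it and in 1 in the fit of all 24 libraries. Left-out libraries took the filtered count to 2 (MC38 knock-out replicate 3), 3 (parental MC38 replicate 3) or 8 (parental B16 replicate 2 or B16 knock-out replicate 1). Gbp4 was 20.8, 16.3 and 14 against 0.239, 0.976 and 0.297 (3.6 ± 0.22, adjusted p = 8.89e-06) and its line difference was smaller (-1.68 ± 0.37, adjusted p = 0.0193), a call lost in 3 of 20 alternatives. Cd274, the gene of the checkpoint ligand PD-L1, was 23.2, 17.5 and 14.9 against 12, 15.1 and 9.51 FPKM (0.56 ± 0.20, adjusted p = 0.0418), a call lost in 11 of 21 alternatives, with a lowest difference of 0.40 without MC38 knock-out replicate 1. Groups at Cd274 did not lie far apart: the lowest MC38 value was below the highest B16 value.

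Genes stimulated by type I interferon separated the knock-out tumours less. Of 26, 15 were called higher in MC38 and none lower (median 0.99), against 24 in parental tumours (median 1.57), and the estimated line-by-genotype difference was negative in all 26, though only 2 were called without the filter and 4 with it (Ifit2, Ifit3, Rtp4 and Xaf1). Without B16 knock-out replicate 1 the filtered count was 16, and without MC38 knock-out replicate 3 it was 2. Ifit2, an antiviral RNA-binding protein, was 25.5, 24.3 and 17.3 against 14.1, 18.8 and 20.3 FPKM in knock-out tumours and was not called (0.31 ± 0.18, adjusted p = 0.17). In parental tumours it was 49.6 ± 2.5 against 15.4 ± 1.74, and the line difference was smaller (-1.31 ± 0.22, adjusted p = 0.00535). Rtp4 went the same way, at 9.59, 10.7 and 8.19 against 7.85, 8.8 and 10.2 in knock-out tumours (0.08 ± 0.13, adjusted p = 0.611) and a line difference smaller (-1.48 ± 0.20, adjusted p = 0.00168). Ifit3 overlapped between knock-out groups (48.6, 48.8 and 38.4 against 21.5, 59.2 and 43.1 FPKM, 0.24 ± 0.33, adjusted p = 0.561). Others of the list remained far apart: Zbp1, a sensor of Z-form nucleic acids, was 18.1, 21 and 16.3 against 0.653, 2.25 and 0.979 (3.14 ± 0.24, adjusted p = 3.27e-05), and the factor Irf7 differed by 2.02 ± 0.21 (adjusted p = 0.000136).

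Of 15 T cell chemokine and receptor genes, 5 were called higher in MC38 knock-out tumours and 1 lower (median 0.76), against 12 higher in parental tumours. Cxcl9, a chemokine of activated T cells, was 47, 25.1 and 21.3 against 0.797, 4.53 and 1.08 FPKM (3.47 ± 0.47, adjusted p = 0.000506), and its line difference did not change detectably (-1.52 ± 0.68, adjusted p = 0.191). Cxcl10, which acts on the same receptor, overlapped between the knock-out groups (81.1, 77.1 and 53.9 against 34.5, 60.4 and 64.6 FPKM, 0.43 ± 0.26, adjusted p = 0.183). The 1 lower gene was that receptor, Cxcr3 (-0.68, adjusted p = 0.0065 without the filter). Of 21 myeloid chemokine and growth factor genes, 9 were called higher and none lower (median 1.23), and 11 in parental tumours. Ccl2, which draws monocytes, was 70.8, 68.5 and 50.9 against 11.8, 21 and 8.76 FPKM (2.19 ± 0.29, adjusted p = 0.000473). Parental MC38 tumours had 226 ± 14.3 and parental B16 12.3 ± 2.66, so the line difference was smaller (-1.92 ± 0.36, adjusted p = 0.00916). The macrophage growth factor Csf1 was 23.3, 22.4 and 26.4 against 4.02, 5.18 and 5.64 FPKM (2.08 ± 0.12, adjusted p = 8.71e-06). Tgfb1 was 9.9, 11.1 and 10.8 against 1.85, 1.19 and 1.52 FPKM (2.21 ± 0.12, adjusted p = 5.23e-06), and no library of the B16 group reached the MC38 range in either gene.

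Among 19 inflammatory cytokine and receptor genes, 18 of them tested, 9 were called higher and 1 lower (median 0.52). Il1b was 8.31, 10.7 and 5.41 against 1.38, 3.48 and 0.44 FPKM (1.84 ± 0.41, adjusted p = 0.00636) and Tnf 1.95, 1.89 and 1.03 against 0.493, 0.691 and 0.313 (0.79 ± 0.18, adjusted p = 0.00589). Ptgs2, which encodes the prostaglandin enzyme COX-2, was 25.6, 26.2 and 27.6 against 0.377, 0.547 and 0.0212 (4.41 ± 0.16, adjusted p = 8.26e-07), and its line difference was larger than in parental tumours by 1.49 ± 0.34 (adjusted p = 0.0205, lost in 4 of 20 alternatives). Casp1, the inflammasome protease, was 29.5, 26.9 and 34.7 against 0.361, 0.669 and 0.163 (4.5 ± 0.16, adjusted p = 7.62e-07) and moved likewise (1.36 ± 0.26, adjusted p = 0.0101, lost in 1 of 20). Both were at under 1 FPKM in every B16 knock-out library. Of 14 complement genes 8 were called higher and 3 lower (median 1.60), C3 being 28.8, 6.01 and 8.23 against 0.659, 0.685 and 0.424 FPKM (2.97 ± 0.49, adjusted p = 0.00147) and C2 1.42, 0.62 and 1.07 against 23.7, 23.4 and 25 (-3.64 ± 0.15, adjusted p = 1.50e-06). Of 14 nucleic acid sensing genes 9 were called higher and none lower (median 0.58), with the DNA sensor Cgas at 8.38, 8.33 and 8.04 against 4.8, 4.48 and 6.39 FPKM (0.58 ± 0.12, adjusted p = 0.00495), while the adaptor gene Tmem173, also named Sting1, was not called in the filtered fit (0.21 ± 0.081, adjusted p = 0.0518).

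Of 15 fibroblast genes, 12 were called higher in MC38 knock-out tumours and 1 lower (median 2.69), against 11 and 1 in parental tumours (median 1.67). The summed FPKM was 585, 598 and 623 in MC38 and 46, 35.9 and 43.5 in B16. In parental tumours it was higher in both lines, at 985, 1136 and 929 in MC38 and 107, 165 and 63.8 in B16. Dcn, a matrix proteoglycan, was 52.8, 59.1 and 47.6 against 0.628, 0.323 and 0.369 FPKM (5.23 ± 0.12, adjusted p = 1.61e-07). The receptor Pdgfra was 9.25, 12.7 and 16.9 against 0.195, 0.189 and 0.181 (3.52 ± 0.19, adjusted p = 5.75e-06). Col3a1 was 245, 289 and 308 against 3.44, 1.99 and 3.82 FPKM (6.13 ± 0.19, adjusted p = 4.27e-07), and the gap was wider than in parental tumours in the filtered fit (1.83 ± 0.41, adjusted p = 0.0197, lost in 3 of 20 alternatives). Parental tumours had 469 ± 61.6 in MC38 and 24.5 ± 12.1 in B16. Col3a1 was thus lower in knock-out than in parental tumours of both lines, and the gap widened because B16 was lower by the larger factor. No change of the line difference was called for the list without the filter (4 grew at an unadjusted p under 0.05). Whether host fibroblasts or the cancer cells made these transcripts was not tested. Endothelial genes were close to even, with 2 of 16 called higher and 3 lower (median 0.07). Pecam1, which encodes CD31, was 6.63, 4.33 and 5.85 against 3.95, 2.52 and 4.34 FPKM and did not pass in the knock-out fit (0.53 ± 0.20, adjusted p = 0.0503). Eng, the endothelial TGF-beta coreceptor endoglin, was lower in MC38 (5.31, 4.75 and 4.57 against 26.6, 30.2 and 29.3 FPKM, -2.34 ± 0.087, adjusted p = 1.01e-06). Pericyte and smooth muscle genes were called higher at 2 of 11 and lower at 1 (median 0.06).

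Melanocyte genes had the widest median gap of the 43 gene lists, and their levels match the line labels. Of 25 melanocyte lineage and pigment genes 22 were lower in MC38 knock-out tumours and none higher (median -5.74), with the same counts in parental tumours (median -4.95) and no called change of the line difference (3 at an unadjusted p under 0.05, limma). The summed FPKM was 37.6, 37.6 and 37.8 in MC38 and 7616, 6738 and 7319.6 in B16. Tyrp1, Mlana and Tyr were listed at 0 in all 3 MC38 knock-out libraries. Tyrp1, a pigment enzyme, was 1784, 1319 and 1458 FPKM in B16 knock-out tumours (-10.56 ± 0.11, adjusted p = 6.18e-09). The melanosome matrix gene Pmel was 1943, 1744 and 1754 FPKM in B16 and 0.197, 0.225 and 0.328 in MC38 (-10.5 ± 0.077, adjusted p = 1.89e-09). Mitf was 133, 173 and 196 FPKM in B16 and 1.51, 1.67 and 0.599 in MC38 (-6.24 ± 0.22, adjusted p = 8.36e-07), and Sox10 was 111, 102 and 106 and 0.0988, 0.0144 and 0.0725 (-6.66 ± 0.077, adjusted p = 8.65e-09). Schwann cell and nerve genes, several of which neural crest cells share, were lower at 5 of 8 and higher at 1 (median -2.77).

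Epithelial and intestinal genes were near 0 in both lines. The epithelial adhesion gene Epcam gave 0.0344, 0.0999 and 0.421 FPKM in MC38 knock-out tumours and was listed at 0 in B16, and the keratin Krt8 gave 0.135, 0.197 and 0.789. The intestinal factor Cdx2 was listed at 0 in all 6 libraries. At these markers the MC38 tumours showed no epithelial or intestinal levels. Of 21 epithelial genes 5 were called higher and 1 lower (median 0.09), and of 14 intestinal genes 8 could be tested, with 1 higher and 2 lower. Mesenchymal genes leaned to MC38: of 19, 11 were called higher in MC38 knock-out tumours and 3 lower (median 1.30). Fn1, fibronectin, was 352, 362 and 413 against 6.11, 3.76 and 4.22 FPKM (6.07 ± 0.15, adjusted p = 2.40e-07) and S100a4 849.97, 737 and 529 against 6.72, 14.6 and 8.43 (6.05 ± 0.28, adjusted p = 2.60e-06). The transcription factors Twist1 (4.37 ± 0.13), Snai1 (4.3 ± 0.18) and Zeb1 (3.04 ± 0.15) were also called higher, while Cdh2, N-cadherin, was lower (-1.75 ± 0.10) and Vim, vimentin, was not called (0.13 ± 0.064, adjusted p = 0.106). The line-by-genotype difference was upward for 4 of the 19, among them Fn1, Snai1 and Tnc, and downward for Snai2.

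**Figure D4:**
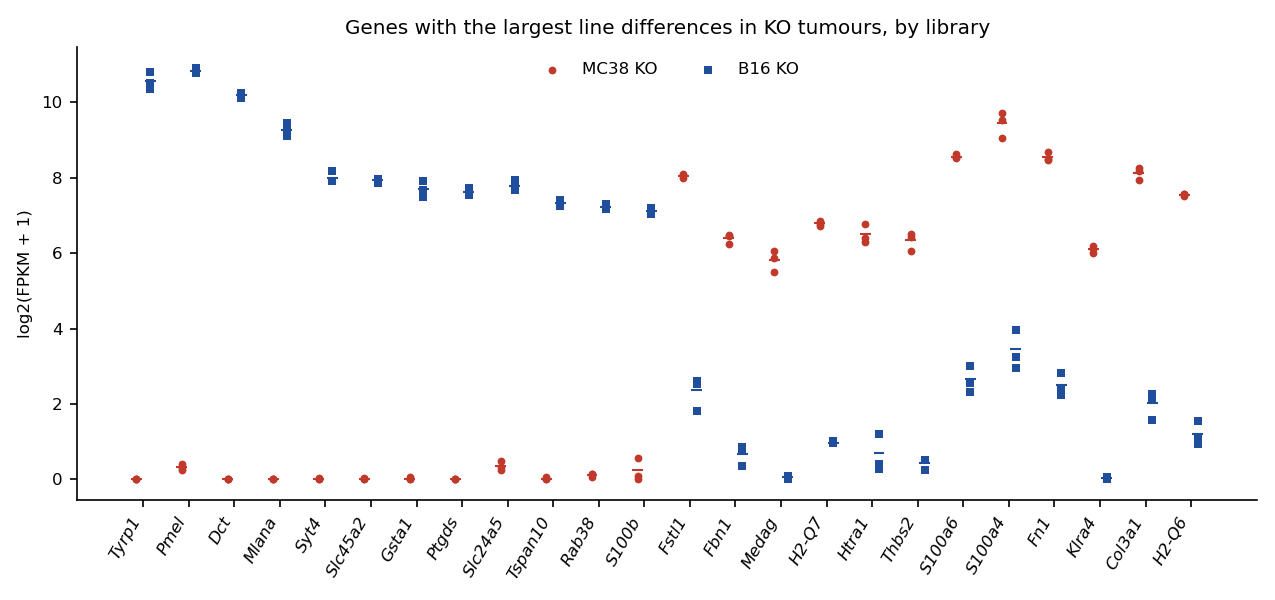
log2(FPKM + 1) of the genes with the widest line differences in knock-out tumours, 12 in each direction, points for libraries and short bars for log2 of the group mean FPKM + 1 (red circles MC38 knock-out, blue squares B16 knock-out). The rule that chose the genes leaves no overlap, and the lower group lies under 1 FPKM at most of them, with the calcium-binding gene S100a4 as the highest on the MC38 side.

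Of the 12 widest protein-coding differences on the MC38 side, H2-Q6, H2-Q7, Klra4, Col3a1, Fn1 and S100a4 have been described. The others were the calcium-binding S100a6 (5.93 ± 0.17), the matrix protein Thbs2 (5.91 ± 0.14), the protease Htra1 (5.86 ± 0.25), Medag (5.75 ± 0.15), fibrillin Fbn1 (5.74 ± 0.15) and the secreted Fstl1 (5.73 ± 0.20). On the B16 side the widest were pigment genes and Syt4 (-7.98 ± 0.093), Gsta1 (-7.68 ± 0.12), Ptgds (-7.63 ± 0.078) and S100b (-6.89 ± 0.16). These values come from the ranking that chose them and are given as a description. Of 14 matrix metalloprotease and inhibitor genes, 13 of them tested, 11 were called higher in MC38 and 1 lower (median 1.92), among them Mmp9 (3.79 ± 0.16, adjusted p = 1.69e-06) and Mmp2 (3.05 ± 0.13, adjusted p = 1.72e-06). Mmp10 was 22.1, 21.5 and 7.49 against 0.335, 0 and 0 FPKM (3.9 ± 0.38, adjusted p = 0.000102) and only 0.769 ± 0.379 in parental MC38 tumours, so its line difference grew by 3.38 ± 0.48 (adjusted p = 0.00242). Among 16 genes of EGFR and FGF ligands and receptors 10 were called higher and 3 lower (median 0.52). The EGFR ligands Ereg (2.97 ± 0.11, adjusted p = 1.14e-06) and Areg (2.49 ± 0.16, adjusted p = 1.28e-05) were higher in MC38, with larger line differences than in parental tumours (1.2 ± 0.16 and 2.00 ± 0.26). The hepatocyte growth factor receptor Met was lower, at 5.85, 5.69 and 7.01 against 44.9, 33.8 and 49.8 FPKM (-2.6 ± 0.15, adjusted p = 7.72e-06).

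Markers of muscle, fat and blood were uneven between libraries, and keratinocyte markers were not. Skeletal muscle genes summed to 158, 28.6 and 3.54 FPKM in MC38 and 2.18, 2.01 and 1.93 in B16 knock-out tumours, and 1 of 12 was called (2 at an unadjusted p under 0.05, limma). Adipocyte genes summed to 63.9, 4.88 and 6.59 and 8.02, 4.71 and 8.2, with none of 8 called (1 at an unadjusted p under 0.05). Haemoglobin and other erythroid genes summed to 296, 66.9 and 77.1 in MC38 and 3458, 3649 and 199 in B16, where replicates 1 and 2 were high and replicate 3 was not, and none of 7 was called without the filter (4 lower at an unadjusted p under 0.05). In the filtered fit 4 were called lower, among them Hbb-bs at 115, 25.2 and 27.6 against 1378, 1383 and 85.7 FPKM (-3.63 ± 1.13, adjusted p = 0.0258), whose separate reading from its near-identical copy Hbb-bt is uncertain. The Hbb-bs call was lost in 9 of 21 alternatives, with adjusted p up to 0.0849 (limma). Among them were those without B16 knock-out replicate 1 (adjusted p = 0.0824) or replicate 2 (adjusted p = 0.081). Keratinocyte genes summed to 30.5, 22 and 18.1 in MC38 and 0, 0.028 and 0 in B16, nearly all from Krt14 (27.7, 19.9 and 15.5 FPKM in MC38) and Krt10, while Krt5, the usual partner of Krt14, was 0, 0 and 0.218 FPKM. Parental MC38 tumours had lower sums, 5.48, 4.93 and 5.89. The line-by-genotype difference was called upward for 1 of 10 genes tested without the filter and downward for 0. The part of these tissues in any other result was not tested. Lymphatic endothelial genes gave 1 lower call of 6, mast cell, basophil and eosinophil genes 2 higher calls of 10 (9 tested), and cancer-testis and germline genes 2 higher and 2 lower of 8 tested, the list having 14.

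Cell cycle genes were called in both directions, 7 of 27 higher and 7 lower without the filter (median -0.13). With the filter, which all 27 passed, the counts were 7 and 10, against 33.9% and 29.5% of all filtered genes. Parental tumours gave 6 higher and 11 lower without the filter, and 7 and 13 with it. The proliferation marker Mki67 was not called (-0.17 ± 0.10, adjusted p = 0.169). The inhibitor loci differed most: Cdkn2a was 6.39, 7.58 and 4.82 FPKM in MC38 and listed at 0 in all 3 B16 knock-out libraries (2.84 ± 0.15, adjusted p = 4.72e-06), and Cdkn2b was 24, 27.9 and 23.1 against 0.125, 0 and 0.631 (4.4 ± 0.19, adjusted p = 1.83e-06). Cyclin D1, Ccnd1, was 126, 126 and 101 against 26.3, 28.1 and 33.3 FPKM (1.97 ± 0.12, adjusted p = 1.04e-05). Of 24 genes of the p53 pathway and DNA damage response 7 were called higher and 10 lower (median -0.01). In the filtered fit it was 6 and 10 of 23, to be read against the same 33.9% and 29.5% of all filtered genes. The p53 target Cdkn1a, which encodes p21, was 26.8, 28.9 and 23.8 against 66.4, 65.4 and 69.4 (-1.31 ± 0.085, adjusted p = 1.28e-05), with a line difference nearer to 0 than in parental tumours (by 0.75 ± 0.13, adjusted p = 0.00541). The p53 targets Eda2r (3.95 ± 0.093) and Fas (2.15 ± 0.12) were higher in MC38, and Bax (-0.88 ± 0.09) and Trp53inp1 (-2.27 ± 0.14) lower. Cdkn1a, Sesn2, Zmat3, Phlda3 and Tnfrsf10b, all p53 targets, moved upward in the line-by-genotype difference, and Chek2 itself downward. These 5 upward calls and 1 downward call of 24 compare with 5.56% and 3.62% of all genes in the filtered fit. Of 22 hypoxia and glycolysis genes 6 were called higher and 12 lower (median -0.53), with the carbonic anhydrase Car9 at 7.92, 11.6 and 9.68 against 134, 100.005 and 107 FPKM (-3.42 ± 0.16, adjusted p = 2.51e-06), Pgk1 at 512, 553 and 505 against 1657, 1382 and 1278 (-1.45 ± 0.12, adjusted p = 3.80e-05) and the oxygen sensor Egln3 going the other way (3.45 ± 0.19, adjusted p = 5.62e-06). Vegfa was not called (-0.13 ± 0.11, adjusted p = 0.304).

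Hox and other positional genes were called higher in MC38 at 14 of 21 and lower at 1 (median 0.86). Hoxc10 was 16.9, 18.1 and 21 FPKM in MC38 and listed at 0 in B16 (4.29 ± 0.10, adjusted p = 2.09e-07), and Hoxb9 was the lower gene (0.0881, 0.0999 and 0.286 against 3.83, 4.34 and 2.18 FPKM, -1.91 ± 0.20, adjusted p = 0.000145). Imprinted growth genes moved singly, 2 of 12 called higher and 2 lower. H19 was 96.9, 119 and 106 against 0.0633, 0 and 0.0299 FPKM (6.71 ± 0.10, adjusted p = 2.19e-08), while its neighbour Igf2 was 0.0102, 0.0152 and 0.0191 FPKM in MC38 knock-out tumours against 8.38 ± 4.95 in parental MC38 tumours. The Igf2 line difference was smaller (-3.09 ± 0.36, adjusted p = 0.00105), and that of Grb10, an imprinted adaptor gene, was too (-2.85 ± 0.22, adjusted p = 0.000107). Igf2 passed the filter of the 12-library fit only with the parental MC38 libraries, where it was high, which limits what its adjusted p can show. The X-linked homeobox gene Rhox5 was 211, 221 and 217 against 7.2, 4.81 and 7.11 FPKM (4.9 ± 0.14, adjusted p = 3.16e-07).

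Among protein-coding genes, those whose line difference changed most between genotypes were mostly outside the immune lists. On the upward side were Bmp5 (9.97, 9.21 and 7.76 FPKM in MC38 knock-out tumours, 0.353 ± 0.248 in parental ones, listed at 0 in all B16 knock-out libraries, 2.89 ± 0.19, adjusted p = 3.30e-05), a BMP growth factor, and Tnnt2, a cardiac troponin (17.3, 18.1 and 13.6 against 0.34, 0.439 and 0.361, 2.84 ± 0.20, adjusted p = 3.80e-05). Bmp5 passed the filter only with the MC38 knock-out libraries, where it was high. Car6, a secreted carbonic anhydrase, was 43.1, 40.2 and 41.2 FPKM in MC38 and 162, 204 and 205 in B16 knock-out tumours, while parental MC38 tumours had 6.25 ± 3.59 and B16 ones 189 ± 55.4, so a gap in favour of B16 narrowed (2.61 ± 0.41, adjusted p = 0.00376). On the downward side were Pttg1ip (11.4, 28.3 and 11 against 15.8, 5.75 and 7.99 FPKM, parental MC38 83.1 ± 8.46, -2.87 ± 0.50, adjusted p = 0.0061) and Krcc1 (11.4, 13.8 and 12.4 against 49.4, 46.6 and 54.9, parental 31.1 ± 23.2 against 15.4 ± 0.788, -2.66 ± 0.49, adjusted p = 0.00808). Rgs16, a regulator of G-protein signalling, even reversed its order: 2.31, 2.02 and 2.81 against 5.05, 4.22 and 3.83 FPKM in knock-out tumours and 9.26 ± 0.451 against 2.13 ± 0.952 in parental ones (-2.43 ± 0.28, adjusted p = 0.000998). The small structural RNA n-R5-8s1, a 5.8S ribosomal RNA copy whose reads cannot be placed among near-identical copies with certainty, was 72.6, 60.3 and 71 against 0.177, 0.206 and 0.675 FPKM (4.7 ± 0.30, adjusted p = 3.30e-05).

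**Figure D5:**
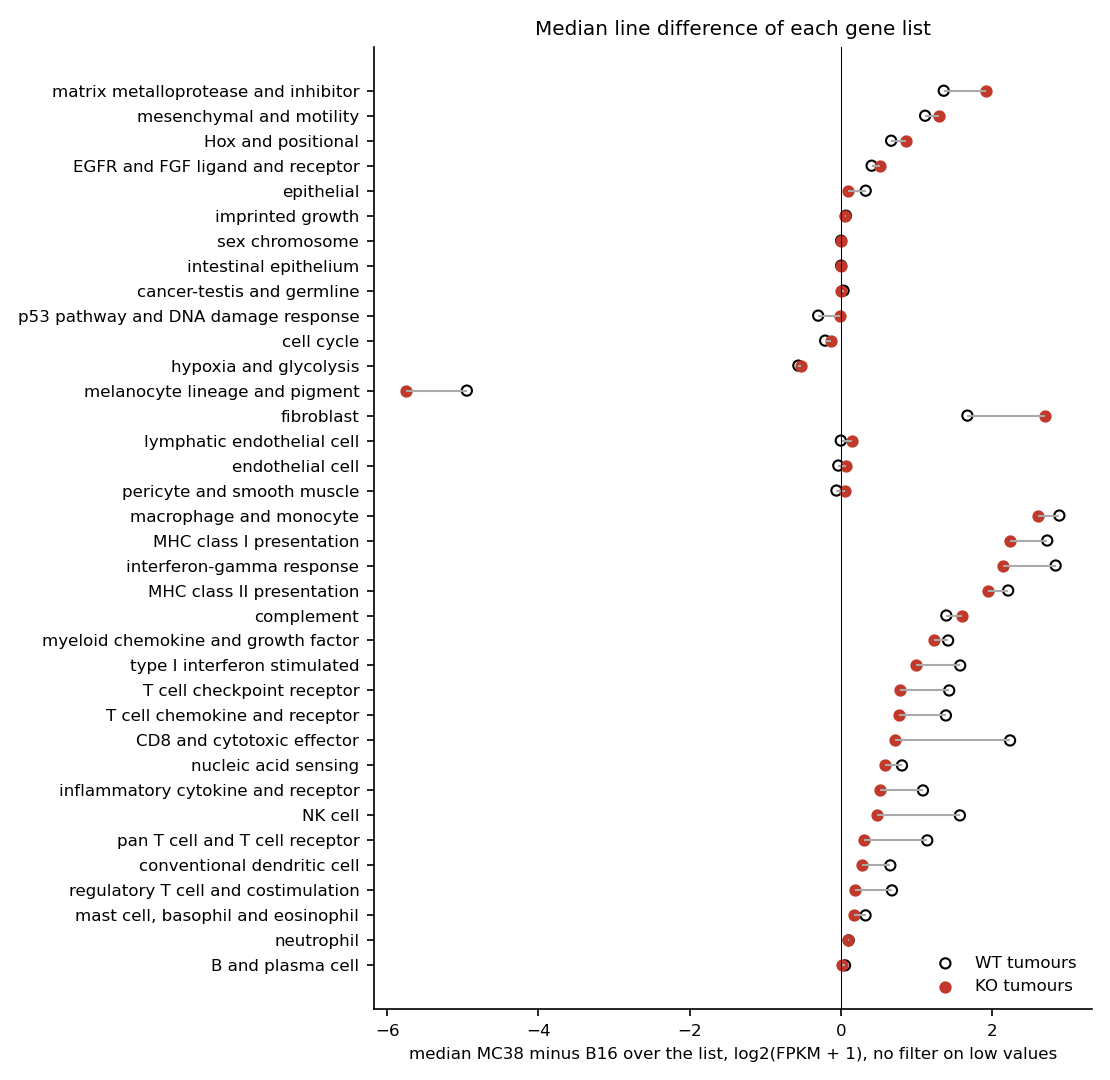
Median line difference over all members of gene lists (MC38 minus B16, log2(FPKM + 1) scale, no filter), open points for parental and filled red points for knock-out tumours. T cell, CD8, NK and checkpoint medians lie nearer to 0 in knock-out tumours (CD8 0.71 against 2.23), macrophage and MHC class I medians lie between 2.23 and 2.88 in both, and the melanocyte median is -5.74 against -4.95.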

How the data were processed

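RNA-seq of whole mouse tumours was used in the form of the FPKM values per gene that the submitters deposited, 1 table per library. Per the submitters' processing notes, FastQC, STAR 2.5, Cuffnorm and DESeq were used with genome build mm10; which of them made the deposited FPKM, and whether counting used strand, is not given in the sources used here. Of 55335 genes, 55154 matched GENCODE M21 and gave symbols. Promoters came from RefSeq, GRCm38.p6.

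Values were tested as log2(FPKM + 1) with limma 3.58.1 (R 4.3.3), moderated with a mean-variance trend and adjusted by Benjamini-Hochberg over all genes tested. Knock-out tumours were compared in a fit of their 6 libraries, and the parental line difference and the line-by-genotype difference in a fit of the 12 PBS libraries, each on genes that reached 1 FPKM in 3 or more libraries. The fits were also run on simulated independent normal values in which a small share of genes was changed by known folds. In the real libraries most genes differ between the lines, so that run does not measure how reliable the counts given here are. Among 276 pairs of libraries, at most 0.0243% of values above 0 were identical, so none was counted as a duplicate.

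The comparison and the 43 gene lists were chosen with earlier results of these data known, and lists are given by counts and medians only. Named genes were Chek2, the immune panel, the 12 largest called knock-out differences in each direction (no overlap, at least 1 FPKM in the higher group, protein coding, no receptor or immunoglobulin segment), up to 5 called members per list and the 6 largest line-by-genotype differences in each direction: 132 genes. Another 56 were added for their role after their values were seen.

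Alternatives were an added constant of 0.1, no filter, a mean of at least 5 FPKM, 3 other scalings, no trend, fits of 12 or 24 libraries, and leaving out each library.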

Additional observations from a re-analysis of the deposited data

Results flagged for a closer look

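For 57 of the 186 named genes tested, the MC38 minus B16 difference itself differed between knock-out and parental tumours (limma, adjusted p under 0.05 over 14735 genes, of which 9.18% passed). The values are the knock-out difference minus the parental difference on the log2(FPKM + 1) scale, and no cause was tested. Several were picked for this difference, so the number is a description.

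In T and NK cell genes the difference was -1.83 for Cd8a, -1.81 for Trac, -1.35 for Cd3d, -1.77 for Gzmb, -2.29 for Gzmc, -1.46 for Prf1, -1.91 for Nkg7, -1.65 for Ifng, -1.37 for Ncr1, -0.87 for Klrb1c, -0.97 for Lag3, -0.98 for Pdcd1 and -2.11 for Ccl5. In interferon response and antigen presentation genes it was -1.81 for Ifit3, -1.68 for Gbp4, -1.48 for Rtp4, -1.33 for Cxcl10, -1.31 for Ifit2, -0.92 for Socs1, -0.96 for Tapbp, -0.94 for H2-M3, -0.93 for Ciita and -0.60 for Psmb10.

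In monocyte, cytokine and growth factor genes it was -1.92 for Ccl2, -1.17 for Ccl7, -1.57 for Ly6c2, -0.81 for Il34, -0.71 for Mertk, -1.04 for Il15, -1.49 for Fgf7, 0.60 for Lif, 1.20 for Ereg, 1.49 for Ptgs2 and 1.36 for Casp1. Among matrix and tissue genes it was 2.67 for Col1a1, 1.83 for Col3a1, 1.41 for Fn1, 3.38 for Mmp10, 2.84 for Tnnt2, 2.89 for Bmp5, 2.59 for Ostn, 2.61 for Car6, -1.43 for Pmp22 and -0.52 for Mbp.

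Cell cycle, p53 pathway, positional and imprinted genes gave 0.75 for Cdkn1a, 0.89 for Cdkn2b, 0.64 for Mcm2, -0.62 for Chek2, 0.43 for Hoxc6, -3.09 for Igf2 and -2.85 for Grb10. The remaining genes, small structural RNAs among them, gave 4.70 for n-R5-8s1, 2.40 for Rn7sk, -2.36 for Mcmdc2, -2.43 for Rgs16, -2.66 for Krcc1 and -2.87 for Pttg1ip.

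Not all of these calls were firm. Of the alternatives run, 16 to 20 a gene, the call was lost in 16 for Hoxc6, 15 for Lif, 14 for Ciita, 13 for Cdkn2b, Cxcl10 and Il15, 12 for Col1a1, Ccl7 and Psmb10, 11 for Mbp, 10 for Pdcd1, 9 for Gzmb and 8 for Il34, with adjusted p up to 0.578 for Cdkn2b and 0.153 for Col1a1. It was lost in at most 4 for each of the others. Cd8a, Ifng, Ncr1, Pdcd1, Prf1, Cd3d, Trac and Igf2 passed the filter only with the parental MC38 libraries, where they were high. Bmp5 passed only with the MC38 knock-out libraries, where it was high. Other genes of this section with low FPKM may have passed in the same way. Without the filter the adjusted p was 0.0101 for Cd8a, 0.0107 for Ifng, 0.00221 for Ncr1, 0.0631 for Pdcd1 and 0.0478 for Prf1 (limma). It was 0.0654 for Gzmb and is not given here for Cd3d, Trac, Igf2 and Bmp5.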

How the results depend on the processing

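The count of called genes in knock-out tumours lay between 6111 (mean of at least 5 FPKM) and 10470 (no filter), and between 6681 and 7754 when 1 library was left out, within 1.5 times of 8705 throughout. With 1 library left out but the genes of the full comparison kept, an alternative chosen after seeing the data, it lay between 7796 and 8549, so part of the drop comes from the filter. The share of calls higher in MC38 was 53.5%, 48.5% after quantile normalization and 57.3% with protein-coding genes setting the scale. It was 46.4% to 47.4% without 1 MC38 library and 58.8% to 59.5% without 1 B16 library, but 53.4% to 54.4% on the genes of the full comparison. The parental count lay between 6551 and 11108, and between 8545 and 9514 without 1 library. The line-by-genotype count of 1353 was 1010 with 0.1 added and 1521 at most, and lay between 707 and 1176 when 1 library was left out: 707 without MC38 parental replicate 2, 864 without MC38 knock-out replicate 2 and 772 without MC38 knock-out replicate 3. Leaving out a library also removes residual degrees of freedom, and no other cause was tested for the line-by-genotype count.

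Of the single-gene values in knock-out tumours under alternatives, 3328 kept their direction and side of the threshold, 86 lost the threshold, 15 gained it and 11 changed sign. The sign changed for Mrc1 (-0.17 without MC38 knock-out replicate 1), Apoe (-0.14 without the same library), Ifit3 (-0.16 without B16 knock-out replicate 1) and Rtp4 (-0.011 after quantile normalization, -0.0045 without MC38 knock-out replicate 2 and -0.0020 without B16 knock-out replicate 1). With 1 library left out the values lay between -0.17 and 0.61 for Mrc1, -0.14 and 0.68 for Apoe, -0.16 and 0.55 for Ifit3, and -0.0045 and 0.17 for Rtp4. None of these 4 genes was called in the main comparison. Of the line-by-genotype values 1034 held and 191 lost the threshold. FPKM under 1 rest on few reads at the estimated depths, which limits the T and NK cell genes most.

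No paired analysis was possible because the labels give the libraries no replicate numbers that groups share.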

Other observations

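Several small structural RNAs had line-by-genotype differences above 0. Rn7s1, a signal recognition particle RNA copy, was 41.4, 42.1 and 41.1 FPKM in MC38 and 8.45, 15 and 6.47 in B16 knock-out tumours, against 5.18 ± 1.97 and 13.5 ± 3.13 in parental tumours (line-by-genotype difference 3.29 ± 0.41, limma adjusted p = 0.00126). Rn7sk, a regulator of transcription elongation, was 14.8, 19.7 and 11.9 against 4.81, 2.94 and 1.36 FPKM (2.4 ± 0.39, adjusted p = 0.00475). The RNase P RNA gene Rpph1 went the same way (2.33 ± 0.47, adjusted p = 0.0129). Of 15 genes in the list of small structural and mitochondrial RNAs, 14 were tested without the filter, and 5 moved upward in the line-by-genotype difference and none downward. Of the 13 that passed the filter, 6 had an estimate below 0. Reads of such RNAs depend on RNA selection and on placement among copies, which is not given in the sources used here, so the values are reported without a reading.

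The Y-linked genes Ddx3y, Eif2s3y and Uty were listed at 0 in all 12 PBS libraries. Xist, the RNA that silences an X chromosome, was 14.9, 10.6 and 6.02 FPKM in MC38 and 2.89, 2.46 and 2.92 in B16 knock-out tumours (1.54 ± 0.27, adjusted p = 0.00206), with no called change of the line difference (-0.45 ± 0.43, adjusted p = 0.556).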
